A study of Mus musculus with 8 samples.

Results

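The SR proteins and hnRNPs are the main families of RNA-binding proteins that decide which splice sites are used, and their genes were followed here in leukaemia stem cells labelled as Nynrin knockout. The genes were taken by symbol from the deposited table: Srsf followed by a number, Hnrnp followed by letters or digits, and Tra2a, Tra2b, U2af1, U2af2, Sf3b1, Ptbp1, Zrsr2 and Syncrip, with pseudogenes left out. The rule found 39 genes of the 48500 in the table, and it used no expression value. The libraries came from bone marrow of mice whose acute myeloid leukaemia is driven by the transcription factors HOXA9 and MEIS1. Of these, 4 are Nynrin-KO (Nynrin-/-), named KO1 to KO4, and 4 are WT (Nynrin+/+), named WT1 to WT4. In both groups the cells were sorted as GFP-positive, c-Kit-positive and Gr-1-negative, with about 10000 cells per library. The sources used here do not give the delivery of the drivers, the age and sex of the mice, the deleted part of Nynrin or whether each library is a separate mouse. The p-values therefore measure only how much these 8 libraries vary, which may be technical.

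SR proteins carry RNA recognition motifs and a domain rich in arginine and serine, bind exonic enhancers and recruit U1 snRNP and the U2AF dimer to nearby splice sites. The hnRNPs coat nascent transcripts and often, though not always, silence exons, so the choice of an exon depends on the balance of both families. Many of these genes limit their own level by splicing in a poison exon that sends the transcript to nonsense-mediated decay, and SRSF2, U2AF1, SF3B1 and ZRSR2 are recurrently mutated in human myelodysplastic syndromes and acute myeloid leukaemia.

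The state of the libraries bears on every value below. Depth, recovered from the FPKM steps, was 1.83 to 28.7 Mreads (megareads) in Nynrin-KO and 1.96 to 33.09 Mreads in WT, with KO3 and WT3 the shallowest. Nynrin stood at 0.0982 to 0.437 FPKM in Nynrin-KO and 0.008 to 0.286 FPKM in WT, with KO3 the highest and WT1 the lowest of the 8 libraries, so its level does not check the labels and does not show the loss of the gene. Xist and the Y-linked gene Ddx3y place KO2, KO3 and KO4 apart from the WT libraries (Xist at most 0.366 FPKM against at least 15.2 FPKM), and in KO1 Xist stood at 12.7 FPKM and Ddx3y at 2.18 FPKM, so a difference of sex cannot be told apart from that of genotype. Marker counts are to be read against the 12524 genes tested, of which 14% rose and 13.8% fell in Nynrin-KO (limma adjusted p under 0.05). Of 14 mature neutrophil markers 9 rose in Nynrin-KO. One of these was Ly6g, a gene of the Gr-1 antigen that the sort was to exclude. It stood at 93.5 to 264 FPKM in Nynrin-KO and 0.707 to 49.3 FPKM in WT (limma adjusted p = 0.0381). The summed level of the 14 was 125000 to 284000 FPKM in Nynrin-KO and 3000 to 105000 FPKM in WT, the lowest in WT1. None of these markers was at 0 in all libraries. Of 10 monocyte and macrophage markers 5 rose, and of the 2 of 5 T and B cell markers that could be tested 1 rose. All 5 mast cell and basophil markers were tested and 3 rose, as did all 3 of 5 erythroid markers that could be tested. Of 6 progenitor markers Cd34 and Flt3 fell and Hoxa9 and Meis1 rose, while Kit, which encodes the sorted antigen, stood at only 2.92 to 4.91 FPKM in Nynrin-KO and 2.63 to 6.4 FPKM in WT. The part of these differences in the results on splicing genes was not tested. In such bulk libraries fewer cells of a type and less RNA per cell cannot be told apart.

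More splicing factor genes were lower than higher in Nynrin-KO. Of the 39 genes 38 passed the filter of at least 1 FPKM in at least 4 libraries, and 11 of these (28.9%) fell at an adjusted p under 0.05 in limma, against 13.8% of the 12524 genes tested. They were Hnrnpa1, Hnrnpk, Ptbp1, Hnrnpf, Syncrip, Srsf6, Srsf3, Hnrnpc, Hnrnpa2b1, Srsf1 and U2af1. None rose at that threshold, against 14% of all genes tested, while 3 had an unadjusted p under 0.05 and a positive change. In limma with voom weights on recovered reads 2 rose, as did 2348 of the 12524 genes tested. The median log2 change was -0.369 over the 38 genes and -0.03 over all genes tested. The genes that fell are mostly abundant ones, and among genes with a mean of at least 20 FPKM 35.5% fell and 15% rose, with a median log2 change of -0.396. At that level 10 of 23 splicing factor genes fell (43.5%) at a median log2 change of -0.575, so the share is to be read against 35.5% rather than 13.8%. The Nynrin-KO and WT ranges did not overlap for 15 of the 38 genes with Nynrin-KO below WT and for 3 of the 38 with Nynrin-KO above WT. Over all genes tested the shares were 15% and 16.7%. These shares were not computed for genes with a mean of at least 20 FPKM.

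The 39 genes together took 0.561%, 0.611%, 0.513% and 0.686% of the reads in KO1 to KO4 and 1.27%, 0.97%, 0.766% and 0.844% in WT1 to WT4. The groups did not overlap, and WT1 stood highest. WT1 was the highest WT library for 31 of the 39 genes and WT3 the lowest for 25, while KO3 was the lowest Nynrin-KO library for 21 and KO4 the highest for 17. WT1 is also the deepest library and the one with the lowest level of neutrophil markers. The number of splicing factor genes that fell was 8 without WT1, 7 without KO1 or WT2, 3 without WT1 and KO1 together and 3 under median ratio scaling. Over all genes tested it was 1246 of 12244 without WT1, 1300 of 11756 without KO1 and 1204 of 11615 without WT2. It was 814 of 11380 without WT1 and KO1 together and 1091 of 12524 under median ratio scaling. In these last 2 settings the share among the 38 genes was near that over all genes. The number of splicing factor genes that fell was 16 with the level of Gm10800, a gene model resembling satellite repeats, as a covariate. With that covariate the number over all genes tested also grew, to 2576 from 1734 in the main fit. The 3 genes that passed under median ratio scaling, and without WT1 and KO1, were Hnrnpa1, Hnrnpk and Syncrip. Quantile normalization kept the direction of all 11 but gave smaller log2 changes for 7 of them, by over 1.5 times. These were -0.687 for Hnrnpk, -0.523 for Hnrnpf, -0.583 for Hnrnpc, -0.65 for Srsf6, -0.549 for Srsf3, -0.52 for U2af1 and -0.384 for Hnrnpa2b1, the one of the 11 that lost its call there (adjusted p = 0.11).

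**Figure D1:**
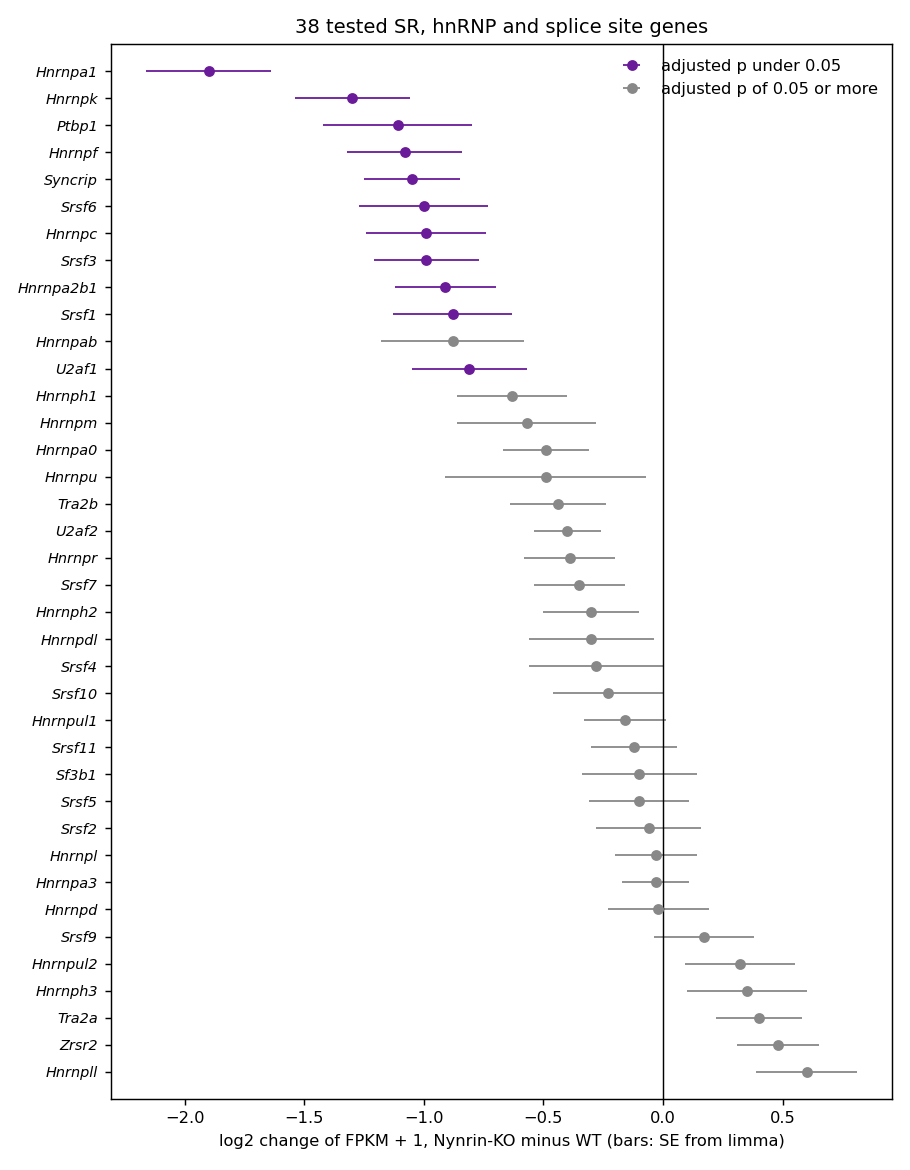
Log2 change of FPKM + 1, Nynrin-KO minus WT, for the 38 tested genes, each with its standard error from limma; purple points passed an adjusted p of 0.05. Hnrnpa1 is at the far left at -1.90, the 11 purple points lie between it and U2af1 at -0.81, and the 6 genes on the right of 0 are all grey.

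The largest falls were of hnRNP genes, where 7 of 22 fell, counting Ptbp1 and Syncrip. That share lies between the 13.8% of all genes tested and the 35.5% of those with a mean of at least 20 FPKM. Hnrnpa1 (ENSMUSG00000046434, chromosome 15, 103240432 to 103246692 on mm10, as for all positions given here), whose protein silences exons and competes with SRSF1 for them, was at 21.2, 19.7, 20.9 and 24.1 FPKM in KO1 to KO4, and at 133, 87.2, 64.7 and 61.4 FPKM in WT1 to WT4. All 4 Nynrin-KO libraries lay close together and far below the lowest WT library. The mean of 21.5 ± 1.84 FPKM in Nynrin-KO was 0.248 times the 86.6 ± 33.1 FPKM in WT (SD, n = 4 each, log2 change -1.90, SE 0.26, limma adjusted p = 0.00195). The fewest Hnrnpa1 reads in each group were 119 in KO3 and 396 in WT3, which did not hold the lowest FPKM. Its relative Hnrnpa2b1, which encodes another protein of the hnRNP core particle, fell to 134 ± 20.5 FPKM in Nynrin-KO against 256 ± 54.8 FPKM in WT (log2 change -0.91, limma adjusted p = 0.013). Hnrnpa0 stood at 1.23 to 2.14 FPKM in Nynrin-KO and 2.49 to 3.51 FPKM in WT without passing (limma adjusted p = 0.0764).

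Hnrnpk (chromosome 13, 58391142 to 58403343), whose protein binds runs of cytosine, was the most abundant of the 39 genes in WT. It was at 206, 208, 203 and 333 FPKM in KO1 to KO4 and at 777, 575, 487 and 499 FPKM in WT1 to WT4. KO4 stood above the other Nynrin-KO libraries and still below every WT library (log2 change -1.30, SE 0.24, limma adjusted p = 0.00565). Hnrnpf (chromosome 6, 117900324 to 117925622), which binds runs of guanine, was at 126, 128, 102 and 182 FPKM in KO1 to KO4 and at 387, 250.4, 239 and 260.5 FPKM in WT1 to WT4 (log2 change -1.08, limma adjusted p = 0.0121). Of its relatives, Hnrnph1 averaged 58.8 ± 11.2 FPKM in Nynrin-KO and 92.2 ± 21.5 FPKM in WT with groups that did not overlap (limma adjusted p = 0.0717). Hnrnph2 had a log2 change of -0.30 (limma adjusted p = 0.308). Hnrnph3 had a change of 0.35 (limma adjusted p = 0.32). Without WT3 both Hnrnph1 (-0.74, adjusted p = 0.049983) and Hnrnph3 (0.58, adjusted p = 0.0371) passed.

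Hnrnpc (chromosome 14, 52073377 to 52104028), whose protein binds uridine tracts and keeps U2AF2 off cryptic exons, was at 51.8, 54.4, 51.3 and 75.2 FPKM in KO1 to KO4 and at 167, 116, 82.2 and 111 FPKM in WT1 to WT4. The ranges came near each other at KO4 and WT3 but did not overlap (log2 change -0.99, SE 0.25, limma adjusted p = 0.0176). Syncrip (chromosome 9, 88447009 to 88482574), which encodes hnRNP Q, was at 3.93, 4.2, 4.34 and 4.93 FPKM in KO1 to KO4 and at 14.5, 10.9, 8.36 and 7.63 FPKM in WT1 to WT4. Its 4 Nynrin-KO values were nearly level, and the fall had a log2 change of -1.05 (SE 0.20, limma adjusted p = 0.00668). Its relative Hnrnpr did not pass (log2 change -0.39, limma adjusted p = 0.147).

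Ptbp1 (chromosome 10, 79854427 to 79864771), which encodes the polypyrimidine tract-binding protein, a repressor of exons, was at 22.6, 27.0, 15.4 and 30.9 FPKM in KO1 to KO4 and at 88.6, 49.8, 36.0 and 43.8 FPKM in WT1 to WT4. The groups were separate, with WT1 far above the other WT libraries (log2 change -1.11, SE 0.31, limma adjusted p = 0.0282). The call was lost without KO1, KO2, KO3, WT1 or WT2 (adjusted p = 0.0635, 0.0508, 0.0515, 0.0542 and 0.058). Hnrnpab, Hnrnpm, Hnrnpu and Hnrnpdl had log2 changes of -0.88, -0.57, -0.49 and -0.30 and did not pass, although Hnrnpab passed without KO2 (adjusted p = 0.0351) or WT4 (0.0423). Hnrnpu varied widely within both groups, at 15.3 to 35.9 FPKM in Nynrin-KO and 16.0 to 51.2 FPKM in WT. Hnrnpul1, Hnrnpul2, Hnrnpd, Hnrnpa3 and Hnrnpl had changes between -0.16 and 0.32, none of which passed.

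**Figure D2:**
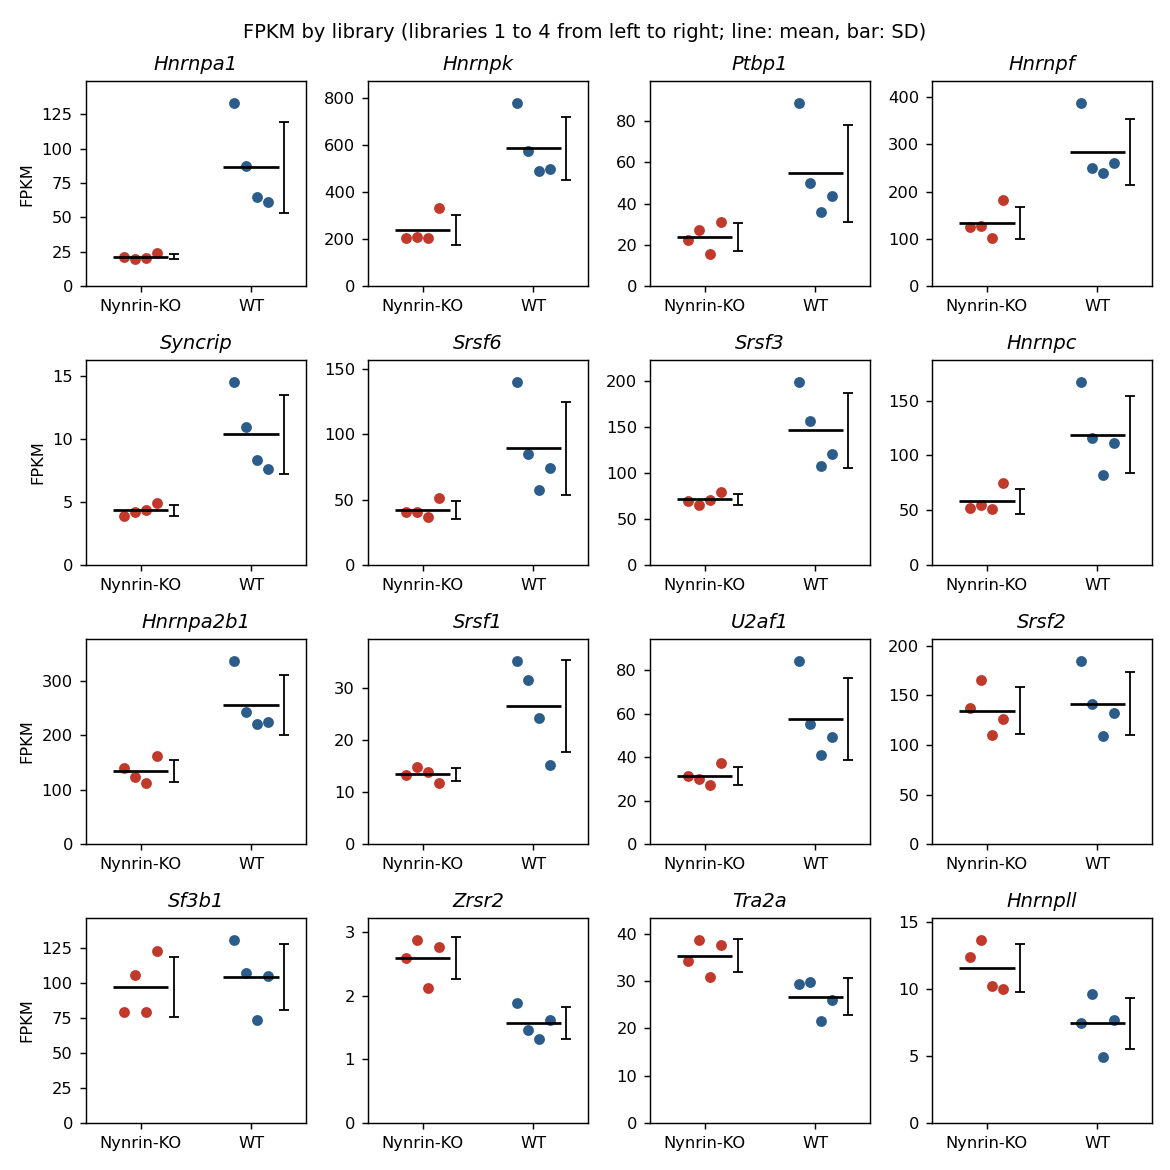
FPKM in each library (red Nynrin-KO, blue WT, libraries 1 to 4 from left to right, line at the mean, bar for the SD) of the 11 genes that fell and of Srsf2, Sf3b1, Zrsr2, Tra2a and Hnrnpll. The red points of the first 11 panels all lie below the blue ones, those of Srsf2 and Sf3b1 overlap them, and those of Zrsr2, Tra2a and Hnrnpll lie above them.

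Of 8 classical SR protein genes 3 fell. Among all genes tested 13.8% fell, as did 35.5% of those with a mean of at least 20 FPKM. Srsf4 and Srsf9 lie far below that level. Srsf6 (chromosome 2, 162931528 to 162937121) was at 40.3, 40.3, 36.5 and 51.6 FPKM in KO1 to KO4 and at 140, 84.7, 57.8 and 74.6 FPKM in WT1 to WT4. KO4 came within a few FPKM of WT3, and the other libraries were well apart (log2 change -1.0, SE 0.27, limma adjusted p = 0.0253). Srsf3 (chromosome 17, 29032628 to 29043373), whose product, the smallest SR protein, also takes part in mRNA export, was at 69.9, 65.5, 70.7 and 79.7 FPKM in KO1 to KO4 and at 199, 157, 108 and 121 FPKM in WT1 to WT4. The Nynrin-KO libraries were tightly grouped and all below WT (log2 change -0.99, SE 0.22, limma adjusted p = 0.0126). Srsf1 (chromosome 11, 88047373 to 88053755), the archetype of the family, averaged 13.4 ± 1.28 FPKM in Nynrin-KO and 26.6 ± 8.82 FPKM in WT (log2 change -0.88, SE 0.25, limma adjusted p = 0.0306). The Srsf6 call was lost without KO1, KO2 or WT2 (adjusted p = 0.0596, 0.0622 and 0.0579), and that of Srsf1 without KO1, KO2, KO4, WT1 or WT2 (adjusted p = 0.0662, 0.0572, 0.0774, 0.0738 and 0.0813).

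The most abundant SR protein gene, Srsf7, did not pass, with 314 ± 28.9 FPKM in Nynrin-KO and 402 ± 59.6 FPKM in WT (log2 change -0.35, SE 0.19, limma adjusted p = 0.195). Its change was 0.281 under quantile normalization. Srsf2 (chromosome 11, 116849901 to 116853094) was at 137, 166, 110 and 126 FPKM in KO1 to KO4 and at 185, 141, 109 and 132 FPKM in WT1 to WT4. The groups overlapped almost wholly (log2 change -0.06, SE 0.22, limma adjusted p = 0.863). Srsf5, Srsf4 and Srsf9 had log2 changes of -0.10, -0.28 and 0.17 and overlapping groups, Srsf4 with as few as 5 reads in KO3 and Srsf9 with 11. The SR-like genes Srsf10 and Srsf11 had changes of -0.23 and -0.12, and Srsf12, at 0.745 to 1.22 FPKM in Nynrin-KO and 0.694 to 0.888 FPKM in WT, did not pass the filter.

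The pair of TRA2 genes, whose proteins bind GAA-rich enhancers, stood on opposite sides of WT. Tra2a (chromosome 6, 49243924 to 49264033) was at 34.3, 38.8, 30.9 and 37.7 FPKM in KO1 to KO4 and at 29.5, 29.8, 21.5 and 26.0 FPKM in WT1 to WT4. All Nynrin-KO libraries lay above the highest WT library, but the change of 0.40 did not pass (SE 0.18, limma adjusted p = 0.12). Tra2b lay wholly below WT, with 78.1 ± 6.34 FPKM in Nynrin-KO and 108 ± 22.1 FPKM in WT, and did not pass either (log2 change -0.44, limma adjusted p = 0.126). Tra2a passed under quantile normalization (0.615, adjusted p = 0.00611) and with array weights (0.42, adjusted p = 0.0421), but under quantile normalization Tra2b had a change of only -0.003 (adjusted p = 0.99).

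The promoters of the gene with the largest fall among the hnRNPs, of Ptbp1, of the SR protein gene with the largest fall and of Tra2a, which stood above WT, are shown as the 250 bases before the start in RefSeq on GRCm38.p6, 5′ to 3′ on the gene's strand. Capitals mark matches on either strand to a GC box core, GGGCGG, to an E-box, CACGTG, and to an ETS-type motif, CCGGAAG.
Hnrnpa1 (chr15:103240147-103240396, plus strand): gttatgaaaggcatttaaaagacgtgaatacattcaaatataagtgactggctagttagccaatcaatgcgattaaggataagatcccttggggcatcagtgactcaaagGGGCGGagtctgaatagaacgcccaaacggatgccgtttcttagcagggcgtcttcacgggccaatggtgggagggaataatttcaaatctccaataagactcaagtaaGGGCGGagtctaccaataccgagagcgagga
Ptbp1 (chr10:79854182-79854431, plus strand): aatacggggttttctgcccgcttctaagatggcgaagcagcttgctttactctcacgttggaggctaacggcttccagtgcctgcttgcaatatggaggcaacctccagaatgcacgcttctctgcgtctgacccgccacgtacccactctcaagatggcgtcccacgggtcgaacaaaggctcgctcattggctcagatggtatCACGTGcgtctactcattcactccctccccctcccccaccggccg
Srsf6 (chr2:162931258-162931507, plus strand): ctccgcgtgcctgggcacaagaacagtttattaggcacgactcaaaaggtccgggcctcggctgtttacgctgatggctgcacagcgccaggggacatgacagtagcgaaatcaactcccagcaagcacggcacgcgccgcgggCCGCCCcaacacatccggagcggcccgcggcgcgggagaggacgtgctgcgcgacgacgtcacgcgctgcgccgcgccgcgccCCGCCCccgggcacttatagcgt
Tra2a (chr6:49264053-49264302, minus strand): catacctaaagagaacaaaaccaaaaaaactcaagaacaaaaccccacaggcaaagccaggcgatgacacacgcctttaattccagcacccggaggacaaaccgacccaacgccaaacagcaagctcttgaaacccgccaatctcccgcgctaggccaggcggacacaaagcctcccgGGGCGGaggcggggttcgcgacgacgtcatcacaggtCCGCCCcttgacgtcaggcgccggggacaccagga
Hnrnpa1, Srsf6 and Tra2a each held 2 matches to GGGCGG, and Ptbp1 held 1 match to CACGTG. RefSeq held promoters for 36 of the 39 genes, 49 promoters in all. GGGCGG was in 81.6% of these 49 and in 32.7% of all 32851 promoters of the same length, and CCGGAAG in 18.4% against 6.91%. CACGTG was in 8.16% against 6.02%. Among the 16 promoters of the genes that fell, 56.2% held GGGCGG, 12.5% CCGGAAG and 12.5% CACGTG. The 2 of these with CCGGAAG were both promoters of Hnrnpf. Shares count promoters rather than genes, and the 32851 were not limited to genes tested here. A match describes letters only.

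Of the 4 factors that recognise the 3′ splice site 1 fell. This share lies between the 13.8% of all genes tested and the 35.5% of those with a mean of at least 20 FPKM. U2af1 (chromosome 17, 31647081 to 31658892), whose protein reads the AG dinucleotide, was at 31.2, 29.9, 27.2 and 37.1 FPKM in KO1 to KO4 and at 84.4, 55.3, 40.9 and 49.4 FPKM in WT1 to WT4. The highest Nynrin-KO library came close to the lowest WT library (log2 change -0.81, SE 0.24, limma adjusted p = 0.0332). The call was lost without any 1 of KO1, KO2, KO3, WT1, WT2 and WT4 (adjusted p = 0.0714, 0.0797, 0.06, 0.0602, 0.0733 and 0.0518). U2af2, its partner on the polypyrimidine tract, lay below WT in all libraries, with 4.06 ± 0.344 FPKM in Nynrin-KO and 5.68 ± 0.663 FPKM in WT, and did not pass (log2 change -0.40, limma adjusted p = 0.0698).

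Sf3b1 (chromosome 1, 54985169 to 55027481), which encodes the subunit of U2 snRNP that holds the branch site, was at 79.2, 106, 79.3 and 123 FPKM in KO1 to KO4 and at 131, 107, 73.4 and 105 FPKM in WT1 to WT4. The groups overlapped (log2 change -0.10, SE 0.24, limma adjusted p = 0.795). Zrsr2 (chromosome X, 163935443 to 163958661), which serves the minor spliceosome and is X-linked, was at 2.59, 2.88, 2.12 and 2.76 FPKM in KO1 to KO4 and at 1.89, 1.46, 1.32 and 1.61 FPKM in WT1 to WT4, from as few as 15 reads in KO3 and 10 in WT3. All Nynrin-KO libraries lay above WT (log2 change 0.48, SE 0.17, limma adjusted p = 0.0621). The part of sex in the level of this X-linked gene was not tested. Zrsr2 passed without KO3 (0.547, adjusted p = 0.0369), with array weights (0.536, adjusted p = 0.0142) and with voom weights (0.769, adjusted p = 0.0116). Hnrnph2 is the other X-linked member.

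Hnrnpll (chromosome 17, 80029487 to 80062334), whose protein is known for the exon skipping of Ptprc (CD45) in lymphocytes, also stood above WT. It was at 12.4, 13.7, 10.2 and 9.97 FPKM in KO1 to KO4 and at 7.45, 9.63, 4.93 and 7.71 FPKM in WT1 to WT4. The lowest Nynrin-KO library was just above the highest WT library (log2 change 0.60, SE 0.21, limma adjusted p = 0.0606). It passed without WT2 (0.72, adjusted p = 0.0478) and with a filter of 5 FPKM (0.60, adjusted p = 0.0438), whereas Hnrnpl, its closest relative, had a change of -0.03.

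Ratios of related genes within a library do not depend on the scaling between libraries, and 11 were computed. They are given as a description, since the genes were chosen with earlier results known. Tra2a stood at 0.403 to 0.543 times the level of Tra2b in Nynrin-KO and at 0.217 to 0.283 times in WT. The U2af1 to Zrsr2 ratio showed the widest gap of the 11, at 10.4 to 13.5 in Nynrin-KO and 30.8 to 44.6 in WT. Srsf6 was below Srsf5 in every Nynrin-KO library (0.662 to 0.948) and above it in every WT library (1.25 to 1.82), so the order of these SR genes differed between the groups. Srsf1 over Srsf9 was 2.54 to 5.03 in Nynrin-KO and 5.48 to 10.1 in WT, and Srsf3 over Srsf7 was 0.189 to 0.243 in Nynrin-KO and 0.305 to 0.43 in WT. Hnrnpa1 over Hnrnpa2b1 was 0.15 to 0.184 in Nynrin-KO and 0.274 to 0.395 in WT. Hnrnpll over Hnrnpl was 0.895 to 1.23 in Nynrin-KO and 0.498 to 0.853 in WT. Ptbp1 over Hnrnpl and Syncrip over Hnrnpr were also wholly lower in Nynrin-KO, while the ratios of Hnrnpf to Hnrnph1 and of the U2AF partners U2af1 to U2af2 overlapped. FPKM was set on the longest annotated transcript, which for Hnrnpr has 21452 bases, so the size of a ratio between genes is less certain than its difference between groups.

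**Figure D3:**
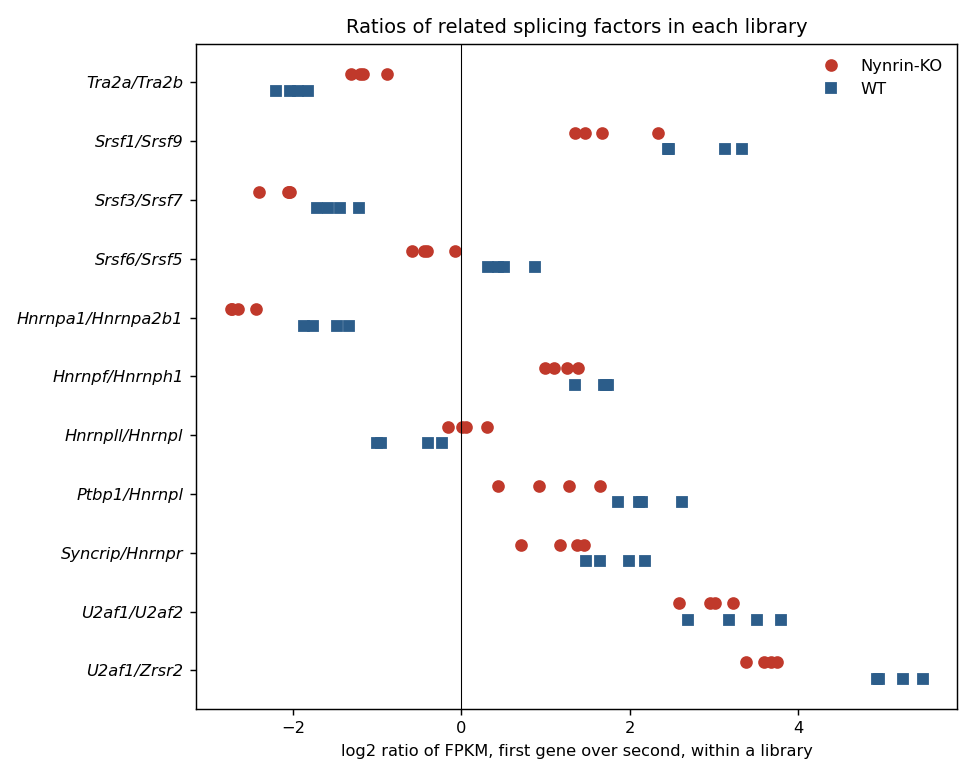
Log2 ratio of FPKM of the first gene over the second in each Nynrin-KO library (red circles) and each WT library (blue squares) for 11 pairs. The groups are apart for all pairs but Hnrnpf/Hnrnph1 and U2af1/U2af2, and Srsf6/Srsf5 lies on opposite sides of 0.

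The gene-level values cannot separate productive from poison transcripts. In GENCODE M21, 26 of the 39 genes (66.7%) have a transcript annotated as a target of nonsense-mediated decay, against 31.3% of the 9335 protein-coding genes tested. The median number of annotated transcripts was 8 for the 39 genes and 5 for the protein-coding genes, and its part in these shares was not tested. Among those that fell it was 9 of 11, with Hnrnpc and Hnrnpf the exceptions, and among the tested genes that did not pass 17 of 27. A retained-intron transcript was annotated for 76.9% of the 39 genes and 62.7% of protein-coding genes.

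Copies also limit single values. A search of the coding sequences against processed pseudogenes, at 90% identity over at least 300 bases, assigned 88 copies to 19 of the genes. Hnrnpa3 had 36, whose summed level of 17.8 to 28 FPKM in Nynrin-KO and 12.9 to 24.3 FPKM in WT exceeded that of the gene itself, at 2.95 to 3.35 FPKM in Nynrin-KO and 3.05 to 3.88 FPKM in WT. Hnrnpa1 had 13 copies, at 5.17 to 13.4 FPKM in Nynrin-KO and 16.7 to 31 FPKM in WT, so that gene and copies both lay lower in Nynrin-KO. Both copies of Hnrnpk fell, with sums of 40.4 to 68.6 FPKM in Nynrin-KO and 105 to 156 FPKM in WT. The sources used here do not say how reads that match several places were counted, so reads of a gene and its copies may be mixed. Some exons overlap another gene, and with the use of strand not stated the reads cannot be told apart. This touched 43.0% of the exon bases of Srsf4, 29.1% of Hnrnpab, shared with Phykpl, and 15.6% of Srsf2, shared with Mettl23. It touched 13.5% or less of each gene that fell for any 1 overlapping gene.

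The rest of the splicing machinery, taken from named lists, was tested in the same fit. There 13.8% of all genes tested fell and 14% rose, and 35.5% fell among genes with a mean of at least 20 FPKM. Of 12 U1, U2 and Sm protein genes 8 fell. Their median log2 change was -1.04, and the Sm genes Snrpg, Snrpd2 and Snrpe had the largest falls, that of Snrpd2 at -1.75 (limma adjusted p = 0.00643). Snrpg averaged 38.4 ± 7.21 FPKM in Nynrin-KO and 140 ± 52.8 FPKM in WT (log2 change -1.78, limma adjusted p = 0.00314), and Snrpe 62.1 ± 8.78 FPKM in Nynrin-KO and 194 ± 69.6 FPKM in WT (-1.57, limma adjusted p = 0.00459). Of 15 SF3a, SF3b and branch site genes 4 fell, namely Sf3b5, Phf5a, Sf3a2 and Sf3b3. Of 17 tri-snRNP and catalytic genes 5 fell, among them Snrnp40, Eftud2, Prpf31 and Bcas2, with log2 changes of -1.30, -0.90, -1.05 and -0.60. The shares of these last 2 lists lay between 13.8% and 35.5%.

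Kinases that phosphorylate the SR domain, and the importins that bring SR proteins to the nucleus, gave 10 tested genes. Of these 1 rose, Srpk2, with 13.1 ± 3.7 FPKM in Nynrin-KO and 5.49 ± 0.931 FPKM in WT (log2 change 1.10, limma adjusted p = 0.00619), and its relative Srpk1 did not pass (-0.49, limma adjusted p = 0.0656). None of the 10 fell in limma, where 1 had an unadjusted p under 0.05 and a negative change and 3 had one with a positive change. Their median log2 change was 0.31, and the share that rose was below the 14% of all genes tested. Among 31 other splicing regulators 3 fell and 3 rose, both shares below the 13.8% and 14% of all genes tested. The muscleblind genes went opposite ways, with Mbnl1 at a log2 change of -0.73 (limma adjusted p = 0.0264) and Mbnl2 at 0.92 (limma adjusted p = 0.0146). Of 14 genes of nonsense-mediated decay and the exon junction complex 3 fell, the junction core genes Eif4a3, Magoh and Rbm8a (-1.19, -0.88 and -0.79). The 3 that rose there included Smg8 (0.64, limma adjusted p = 0.0137). In this list of only 14 genes both shares were above the 13.8% and 14% of all genes tested. The share that fell was below the 35.5% of genes with a mean of at least 20 FPKM.

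**Figure D4:**
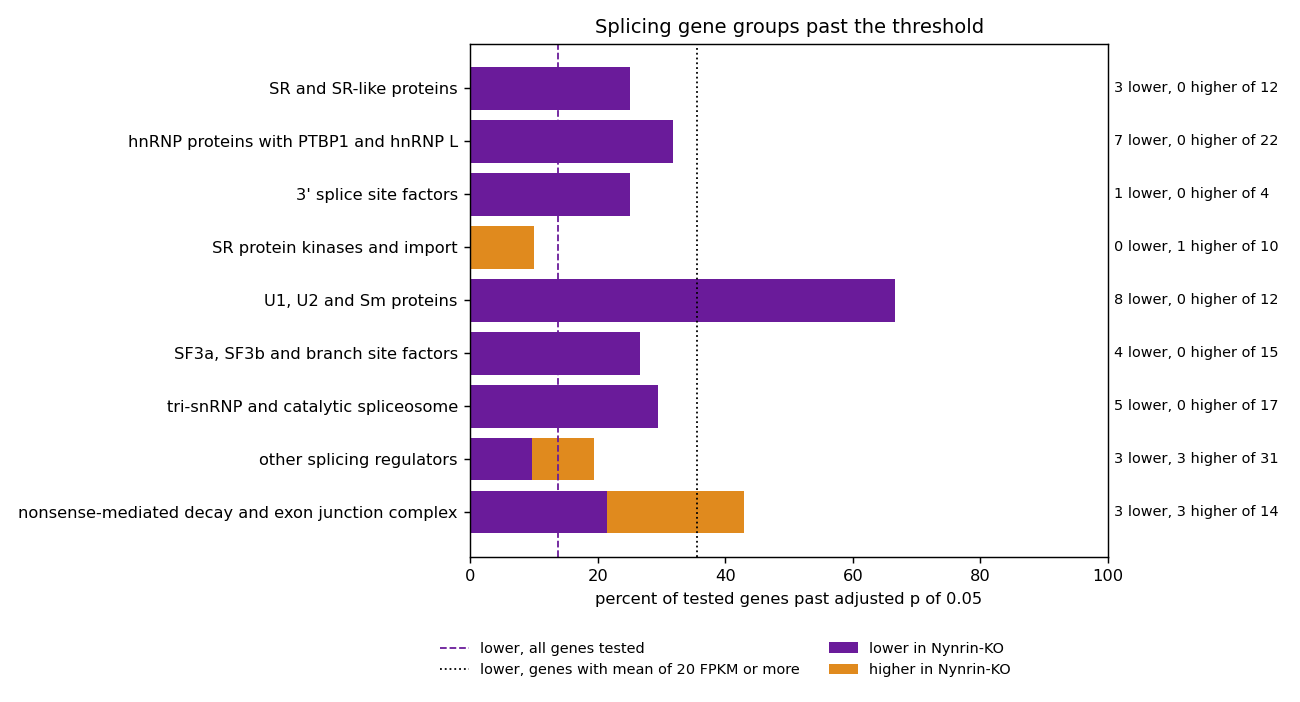
Percent of the tested genes of each group that fell (purple) or rose (orange) in Nynrin-KO at an adjusted p of 0.05, with the counts at the right. The dashed line marks the 13.8% of all genes tested that fell and the dotted line the 35.5% of genes with a mean of at least 20 FPKM; U1, U2 and Sm proteins are the one group whose purple bar passes the dotted line.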

How the data were processed

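RNA-seq values of 8 libraries, 4 per genotype, were deposited by the authors as 1 table without a stated unit. They were taken as FPKM, since each column, multiplied by the longest transcript of each gene (GENCODE M21), gave nearly equal totals. The submitters' processing notes list mm10, Bowtie 0.12.9, Cufflinks 2.1.1 and HTSeq but assign them no step. Whole reads were recovered from the steps of the deposited FPKM values, and 99.47% to 99.54% of the values per library came out whole within 0.1 read. Read numbers reflect counting error only, as PCR copies are not independent molecules.

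A gene was tested if 4 or more libraries reached 1 FPKM. The test was limma 3.58.1 in R 4.3.3 on log2(FPKM + 1), with genotype as its single term and trend and robust moderation. It was two-sided, and p-values were adjusted over 12524 genes by the Benjamini-Hochberg method at 0.05. High values in 1 group alone suffice for a gene to be tested, and adding 1 FPKM understates changes of low genes. Pseudogene copies were found with blastn 2.17.0, and plots were drawn in Python 3.11.15. Every member is named. Values of every library are given for Srsf2, U2af1, Sf3b1, Zrsr2, Ptbp1 and the 8 largest falls, and for Tra2a and Hnrnpll, which were picked after their values were seen. From other lists at most 4 genes past the threshold, by smallest p, and 2 others are named. Members and lists were chosen with earlier results of these data known. Coordinates follow GENCODE M21 (GRCm38), counted from 1. Alternatives varied the pseudocount, filter, scaling, moderation, weights, threshold, block, covariate and libraries.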

Additional observations from a re-analysis of the deposited data

Results flagged for a closer look

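In 6 of the 78 sets of 4 libraries (39 genes in each group) the highest or lowest library stood apart from the others by more than Dixon's 95% critical value for the gap over the range, and chance gives about 1 in 20. KO4 was high for Hnrnpk, at 333 FPKM with the next Nynrin-KO library at 208 FPKM, and for Hnrnpc, at 75.2 FPKM with the next at 54.4 FPKM. KO3 was low for Hnrnpa0, at 1.23 FPKM from 6 reads, with the next Nynrin-KO library at 2.13 FPKM. KO1 was high for Srsf12, at 1.22 FPKM from 34 reads, with the next at 0.797 FPKM. WT1 was high for Hnrnpf, at 387 FPKM with the next WT library at 260.5 FPKM, and for Hnrnpa3, at 3.88 FPKM with the next at 3.11 FPKM.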

How the results depend on the processing

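All 11 genes that fell kept their direction under all 21 alternatives. Those that change only the filter, the moderation or the threshold, or add the replicate block, leave the log2 change as it was. The direction could not turn under them. Hnrnpa1 and Hnrnpk also stayed past the threshold in each of the 21, and Ptbp1, Srsf6, Srsf1 and U2af1 lost it most often. The number of splicing factor genes that fell, and of all genes that fell and rose, was 5, 908 and 790 without a filter, 3, 1091 and 1041 under median ratio scaling, 3, 814 and 765 without WT1 and KO1, 4, 714 and 211 in the 5 libraries where Gm10800 reached 10000 FPKM, and 3, 783 and 671 at an adjusted p under 0.01. Genes tested in all numbered 48500 without a filter, 11380 without WT1 and KO1 and 11125 in those 5 libraries. They numbered 12524 under median ratio scaling and at an adjusted p under 0.01. With a filter of 5 FPKM 1070 of 5789 genes rose in all. Splicing factor genes that rose numbered 1 with that filter, 1 under quantile normalization, 2 with array weights and 2 with voom weights. Under the last 3 settings 1917, 2472 and 2348 of the 12524 genes tested rose. Those are larger shares than among the 38 splicing factor genes. Leaving out 1 library gave 7 to 12 splicing factor genes that fell and 0 to 1 that rose, and 1204 to 1852 genes that fell and 1020 to 1875 that rose in all. With a replicate block 11 splicing factor genes, and 1481 genes in all, fell and 1357 rose. U2af1 was lost (adjusted p = 0.0524) and Hnrnpab gained (0.0417). To look for pairs, the deviations of each library from its group mean, gene by gene on log2(FPKM + 1), were correlated between the groups. These are not correlations of the expression values themselves. Libraries with the same number had correlations of -0.213, -0.389, 0.329 and 0.008, so the numbers were not taken as pairs, and not every library correlated best with its own number. Of the tests planned on recovered reads, voom was run and edgeR was not run.

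Signs turned only for genes that had not passed, with these log2 changes. Under quantile normalization they were 0.333 for Sf3b1, 0.2 for Srsf11, 0.409 for Srsf2, 0.247 for Srsf5, 0.281 for Srsf7 and 0.005 for Hnrnpl. Array weights gave 0.005 for Hnrnpa3 and 0.054 for Srsf4. Voom weights gave 0.013 for Hnrnpa3, 0.016 for Hnrnpl, 0.009 for Srsf2 and 0.165 for Srsf4. Libraries high in Gm10800 gave 0.052 for Hnrnpa3, 0.298 for Hnrnpd, 0.148 for Hnrnpl and 0.037 for Srsf5, and Gm10800 as a covariate gave 0.063 for Hnrnpd. Without WT1 and KO1 they were 0.03 for Hnrnpa3, 0.005 for Hnrnpd, 0.046 for Hnrnpl, 0.108 for Sf3b1, 0.044 for Srsf10, 0.022 for Srsf11 and 0.06 for Srsf2. Leaving out 1 library gave -0.052 to 0.038 for Hnrnpa3, -0.169 to 0.1 for Hnrnpd, -0.088 to 0.078 for Hnrnpl, -0.179 to 0.073 for Srsf2, -0.254 to 0.02 for Sf3b1 and -0.246 to 0.026 for Srsf5. The cause of these shifts was not tested. KO3 and WT3, the shallowest libraries, limit genes of few reads such as Srsf4, Srsf9 and Zrsr2.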
